A study of Schizosaccharomyces pombe with 2 samples.

Results

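The RNA interference (RNAi) machinery of fission yeast was followed through the small RNA reads that mapped to its own genes. Its members were taken by systematic name as 8 protein-coding genes, out of 5129 mRNAs and 9139 features of all kinds in the deposited table: ago1, chp1, tas3, rdp1, hrr1, cid12, dcr1 and stc1. All 8 symbols were found for these names in the RefSeq gene table. Small RNAs came from exponentially growing exo2Δ cells (strain YAM2397) and from wild-type (WT) cells (strain YAM2394), both of the fission yeast Schizosaccharomyces pombe. Both strains carry ade6-M210, ura4-D18 and leu1-32 and were grown in rich medium, and exo2Δ cells also carry a kanMX4 cassette in place of exo2, the gene of the cytoplasmic 5′ to 3′ exonuclease. RNAs of 10 to 40 nt were purified from a gel. There was 1 library per strain, so that no difference below has a replicate check, and fewer transcripts and fewer fragments per transcript cannot be told apart.

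In fission yeast, RNAi keeps the repeats around centromeres in silent heterochromatin. Dcr1, the Dicer ribonuclease, cuts double-stranded RNA into small interfering RNAs, and Ago1, the single Argonaute protein, binds them. Ago1 forms the RITS complex with Chp1, which binds methylated histone H3, and with Tas3, which bridges both proteins. The RDRC complex makes the double-stranded RNA and holds Rdp1, an RNA-dependent RNA polymerase, Hrr1, a helicase, and Cid12, a nucleotidyltransferase. Stc1 links RITS to CLRC, the complex that methylates histone H3. The reads on these genes are small RNAs with the strand of the machinery's own mRNAs. Small RNAs of the repeats, which have several places in the genome, are not counted here, and the table gives no read lengths.

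The 2 libraries had similar depths. Features held 13678760 reads in exo2Δ and 13555082 reads in WT, and mRNAs held 1675011 reads in exo2Δ and 1937624 in WT. The coding exons of exo2 held 26 reads in exo2Δ and 251 reads in WT, which is the direction of the labels. The 309 nt of exo2 outside the coding exons went the other way, with 31 reads in exo2Δ and 3 in WT, and the source of the reads left in exo2Δ was not tested. The 8 RNAi genes held 714 reads in exo2Δ and 731 reads in WT, or 0.00522% of feature reads in exo2Δ and 0.00539% in WT. Their summed density was 0.975-fold that of WT (95% counting interval 0.878 to 1.08). Counting intervals here and below are exact binomial for ratios and exact Poisson for densities. They hold counting error and nothing else, because without molecular identifiers several reads can stem from 1 molecule.

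Reads on RNAi genes were sparse for their length. The median density of mRNAs was 0.0451 tags per nt in exo2Δ and 0.0485 tags per nt in WT. In exo2Δ 7 of the 8 RNAi genes lay under that median, and in WT all 8 did. The order by density in exo2Δ was ago1, rdp1, cid12, tas3, stc1, dcr1, chp1 and hrr1. Of genes next to each other in this order, only ago1 and rdp1 had counting intervals that did not overlap. Further apart, the intervals of rdp1, cid12 and tas3 all lay above those of dcr1, chp1 and hrr1. In WT the order was ago1, stc1, tas3, rdp1, chp1, cid12, hrr1 and dcr1, and each gene overlapped the next. The 8 genes thus had the same leading gene in both libraries, but its lead was resolved only in exo2Δ. In WT the interval of ago1 (0.0360 to 0.0513) overlapped those of stc1 (0.0199 to 0.0433) and tas3 (0.0227 to 0.0376). Below ago1, places next to each other were not resolved in either library at this depth.

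**Figure D1:**
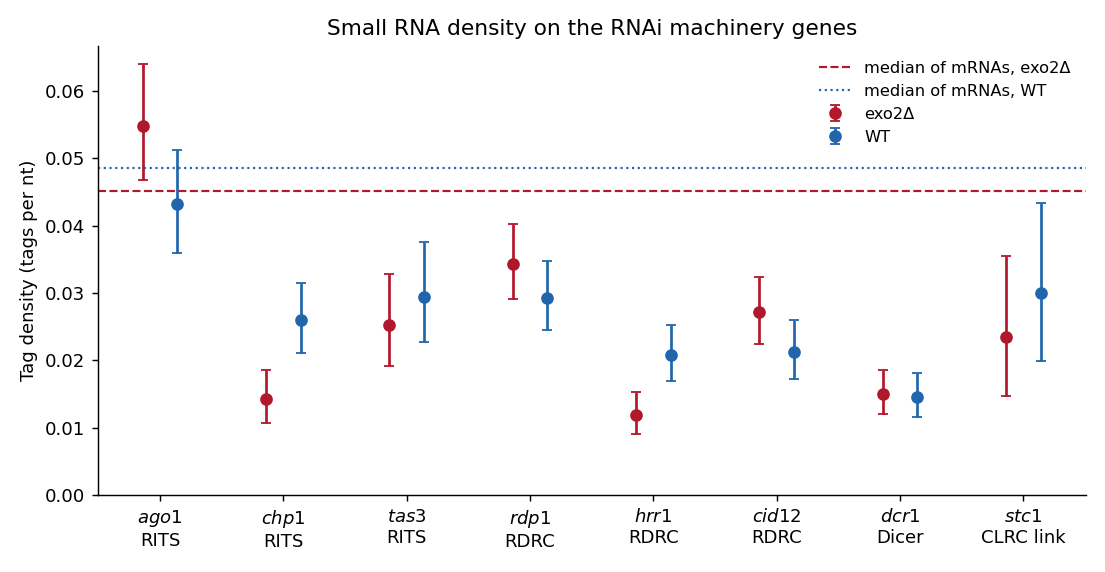
Tag density in tags per nt (linear axis) for each RNAi gene, with the exo2Δ library left of the WT library and bars for 95% Poisson counting intervals. Dashed and dotted lines mark the medians of all mRNAs, 0.0451 in exo2Δ and 0.0485 in WT; only ago1 in exo2Δ lies above its line, and the exo2Δ and WT bars of chp1 and hrr1 do not overlap.

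Within RITS, ago1 had more reads in exo2Δ than in WT and chp1 had fewer, while tas3 was not told apart from no change. The gene ago1 (SPCC736.11, chromosome III, 334103 to 337070, plus strand) held 163 reads in exo2Δ and 128 reads in WT. Its density was 0.0548 tags per nt in exo2Δ and 0.0431 tags per nt in WT, at percentile 57.7 of mRNAs in exo2Δ and percentile 44.9 in WT. The density ratio of exo2Δ over WT was 1.27 (1.002 to 1.61), with its lower limit just above no change. The limit was 0.984 when the 10 features with the most reads were left out of the scaling and 0.846 when scaled on small nuclear and nucleolar RNAs. Over the coding exons alone, which held 148 reads in exo2Δ and 119 in WT, it was 1.24 (0.968 to 1.59), and the interval included no change.

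The reads of ago1 were denser over its first coding exon than over the second. Both coding exons have the same coordinates in the RefSeq annotation of build ASM294v3, from which the first one (chromosome III, 334137 to 334265, plus strand, 129 nt) is shown because it was the densest coding exon among the RNAi genes. The capitals mark the start codon.
ago1 first coding exon: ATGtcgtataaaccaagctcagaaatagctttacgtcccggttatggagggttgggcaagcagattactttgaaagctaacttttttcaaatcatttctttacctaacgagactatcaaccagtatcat

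This exon held 20 reads in exo2Δ and 22 reads in WT, or 0.155 tags per nt in exo2Δ (0.0945 to 0.239) and 0.171 tags per nt in WT (0.107 to 0.258). The second exon, of 2376 nt, held 128 reads in exo2Δ and 97 reads in WT, or 0.0538 and 0.0408 tags per nt. The first exon was therefore 2.88 times as dense as the second in exo2Δ (1.70 to 4.63) and 4.18 times as dense in WT (2.50 to 6.69). The GC content was 38.0% in the first exon and 40.0% in the second. Of 2394 genes with several coding exons, 2171 had a mean of at least 10 reads over all of them, a minimum chosen after the values were seen. Their first exon had a median density ratio over the others of 0.938 in exo2Δ and 1.05 in WT. Of these genes, 14.3% in exo2Δ and 10.1% in WT had a ratio at least as high as that of ago1, and short exons with few reads give a wide spread. In a smaller set of 858 genes, the first exon and the others each had to reach a mean of 10 reads. A short first exon passes this mainly where it is dense, so the filter itself raises the ratios. In that set the median ratio was 1.39 in exo2Δ and 1.61 in WT, and 19.7% in exo2Δ and 13.3% in WT were at or above ago1. These values therefore do not describe first exons in general.

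The gene chp1 (SPAC18G6.02c, chromosome I, 2210810 to 2214664, minus strand) held 55 reads in exo2Δ and 100 reads in WT. Its density was 0.0142 tags per nt in exo2Δ and 0.0259 tags per nt in WT, a ratio of 0.549 (0.388 to 0.770). This was the lowest ratio of the 8 genes, and in a single coding exon of 2883 nt the reads were 50 in exo2Δ and 85 in WT, a ratio of 0.587 (0.405 to 0.842). The gene tas3 (SPBC83.03c, chromosome II, 1514006 to 1516211, minus strand) held 56 reads in exo2Δ and 65 reads in WT, a ratio of 0.860 (0.590 to 1.25) that included no change. Between ago1 and chp1, which had the highest and the lowest ratio in RITS, the counting interval of the difference left out 1. That interval makes no allowance for picking extremes from the same values. How far pairs of other mRNAs differ is not given. Both limits also hold for the RDRC pairs below, where hrr1 was the lowest. The ratio of ago1 was 2.32 times that of chp1 (1.52 to 3.54), a comparison that no scaling of the libraries can change, and 2.11 times over coding exons (1.35 to 3.31). The ratio of tas3 relative to chp1 was 1.57 (0.936 to 2.62), and that of ago1 relative to tas3 was 1.48 (0.944 to 2.32), and both intervals included 1.

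Within RDRC, hrr1 had fewer reads in exo2Δ than in WT, and its ratio lay below those of rdp1 and cid12. The gene rdp1 (SPAC6F12.09, chromosome I, 1324591 to 1329061, plus strand) held 154 reads in exo2Δ and 131 reads in WT, a density ratio of 1.17 (0.923 to 1.49). The gene cid12 (SPCC663.12, chromosome III, 1655666 to 1660080, plus strand) held 120 reads in exo2Δ and 94 reads in WT, a ratio of 1.27 (0.964 to 1.69). Both intervals included no change. The gene hrr1 (SPCC1739.03, chromosome III, 2029261 to 2034205, plus strand) held 59 reads in exo2Δ and 103 reads in WT, a ratio of 0.572 (0.408 to 0.795). Its 4 coding exons held 39 reads in exo2Δ and 65 reads in WT, a ratio of 0.599 (0.392 to 0.904). Most of these reads fell in the first exon, with 29 in exo2Δ and 51 in WT, and it makes up 2338 of the 3000 coding nt. The second exon held 7 in exo2Δ and 11 in WT. Per nt the first exon was not the denser one, with 0.0124 against 0.0151 in exo2Δ and 0.0218 against 0.0238 in WT. The intervals of these densities overlapped. The last 2 exons held the same number in both libraries, 2 reads in the third and 1 read in the fourth, too few for any ratio. The ratio of rdp1 was 2.05 times that of hrr1 (1.36 to 3.11), and that of cid12 was 2.23 times that of hrr1 (1.44 to 3.46). Between cid12 and rdp1 the relative ratio was 1.09 (0.748 to 1.58).

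The other 2 genes had ratios whose intervals included no change. The gene dcr1 (SPCC188.13c, chromosome III, 1504949 to 1510574, minus strand), the longest of the 8, held 85 reads in exo2Δ and 82 reads in WT. Its density was 0.0151 tags per nt in exo2Δ and 0.0146 tags per nt in WT, a ratio of 1.03 (0.755 to 1.42). It lay at percentile 16.7 of mRNAs in exo2Δ and 13.6 in WT, the lowest place of the 8 in WT. The gene stc1 (SPBP8B7.28c, chromosome II, 3691008 to 3691942, minus strand), the shortest, held 22 reads in exo2Δ and 28 reads in WT. Its ratio of 0.784 had the widest interval of the 8 (0.427 to 1.42), which is set by the small number of reads.

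Log2 ratios of exo2Δ over WT, computed after adding 1 read to both libraries, ran from -0.85 for chp1 to 0.35 for cid12, and 4 genes lay above 0 and 4 below. The values were -0.80 for hrr1, -0.34 for stc1, -0.21 for tas3, 0.05 for dcr1, 0.23 for rdp1 and 0.34 for ago1. Those of rdp1 and dcr1 turned below 0 when the libraries were scaled on small nuclear and nucleolar RNAs, at -0.014 and -0.19. The signs of the other 6 held under the 6 alternatives tried. Changing the number of reads added cannot turn a sign, so those alternatives are no check of it. Nor is the use of coding exons for stc1, which had no reads elsewhere. The median of the 8 was -0.08, against -0.15 over 4749 mRNAs that reached a mean of 10 reads between the libraries, a minimum that all 8 genes passed. The sign of the RNAi median depended on these choices, with -0.32 when scaled on small nuclear and nucleolar RNAs and 0.069 when the median ratio of mRNAs was set to no change. Over coding exons alone, at the scaling as deposited, it was 0.046.

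None of the 8 genes differed by more than 2-fold in either direction. Of the mRNAs that passed the minimum, 114 (2.4%) were more than 2-fold higher in exo2Δ and 240 (5.05%) more than 2-fold lower. These numbers were 73 and 501 when scaled on small nuclear and nucleolar RNAs, and 169 and 146 when the median ratio of mRNAs was set to no change. Under the first of these scalings chp1 and hrr1 were more than 2-fold lower, at log2 ratios of -1.09 and -1.04, as were 10.5% of mRNAs. At 1.5-fold and the scaling as deposited, chp1 and hrr1 were lower, as were 18.4% of mRNAs, and no RNAi gene was higher. The spread between the libraries was wider than the counting intervals of single genes. Among the 2363 mRNAs with a mean of 50 to 200 reads, a range chosen after the values were seen that takes in every RNAi gene but stc1, the middle 95% of log2 ratios ran from -1.09 to 0.83. All 7 genes lay within it. The ratio of chp1 was at percentile 7.94 of the mRNAs past the minimum and that of hrr1 at percentile 9.41, so that ratios as low as these were not rare, although their counting intervals left out no change. At the other end, ago1 was at percentile 84.1 and cid12 at percentile 84.3.

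**Figure D2:**
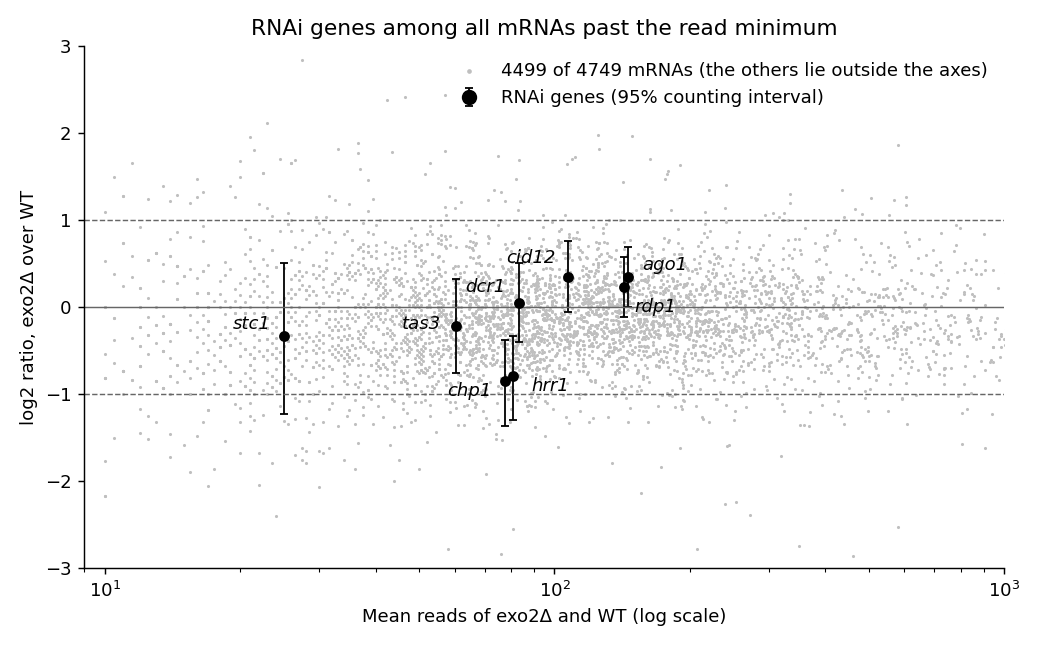
Log2 ratio of exo2Δ over WT with 1 read added (linear axis) against the mean reads of both libraries (log axis), with RNAi genes in black and mRNAs in grey, and dashed lines at 2-fold. Bars are 95% counting intervals of the reads without the added read; chp1 at -0.85 and hrr1 at -0.80 lie lowest, and all RNAi genes sit inside the cloud of mRNAs and inside the dashed lines.

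Within the RNAi genes, reads lay mainly over the coding exons. Coding exons together held 567 reads in exo2Δ and 569 reads in WT. Per nt, they were denser than the rest of the gene in 8 of 8 genes in both libraries, and this was so for 85.8% of mRNAs in exo2Δ and 86.6% in WT. Some gaps were small. In WT they were 0.0148 against 0.0140 tags per nt for dcr1 and 0.0217 against 0.0195 for hrr1. Intervals for the rest of the gene were not computed, so the direction is not resolved for every gene. The share of a gene's reads in coding exons was 94.6% in exo2Δ and 86.2% in WT for tas3, 92.9% in exo2Δ and 93.9% in WT for rdp1, and 90.9% in exo2Δ and 85.0% in WT for chp1. For ago1 it was 90.8% in exo2Δ and 93.0% in WT. The median mRNA had 83.6% in exo2Δ and 83.8% in WT. Below it lay dcr1, with 81.2% in exo2Δ and 74.4% in WT, and hrr1, with 66.1% in exo2Δ and 63.1% in WT. The gene stc1 had no read outside its coding exon in either library, over 287 nt, which allows up to 3 reads.

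The gene cid12 had the lowest share, with 35.8% of its reads in the coding exon in exo2Δ and 34.0% in WT. Its annotated transcript runs for 3404 nt outside a coding exon of 1011 nt. The part outside held 77 reads in exo2Δ and 62 reads in WT, and the coding exon held 43 reads in exo2Δ and 32 in WT. Nearly all of the reads outside were also counted in an annotated noncoding transcription unit on the same strand, novelncTU_231 (chromosome III, 1657050 to 1659921), which lies wholly inside the cid12 gene. It held 71 reads in exo2Δ and 60 reads in WT, leaving 6 and 2 reads for the rest of the cid12 gene outside the coding exon. Reads of this stretch cannot be assigned to cid12 or to the noncoding unit. The coding exon, which shares no bases with that unit, had a ratio of 1.34 (0.829 to 2.19), and the unit had a ratio of 1.18 (0.826 to 1.69). The coding exon of cid12 was the second densest among the 8 genes in exo2Δ, at 0.0424 tags per nt, against the fifth in WT, at 0.0317 tags per nt. Its intervals (0.0307 to 0.0572 in exo2Δ and 0.0216 to 0.0447 in WT) overlapped those of rdp1, stc1 and tas3 in both libraries. This change of place was therefore not resolved.

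**Figure D3:**
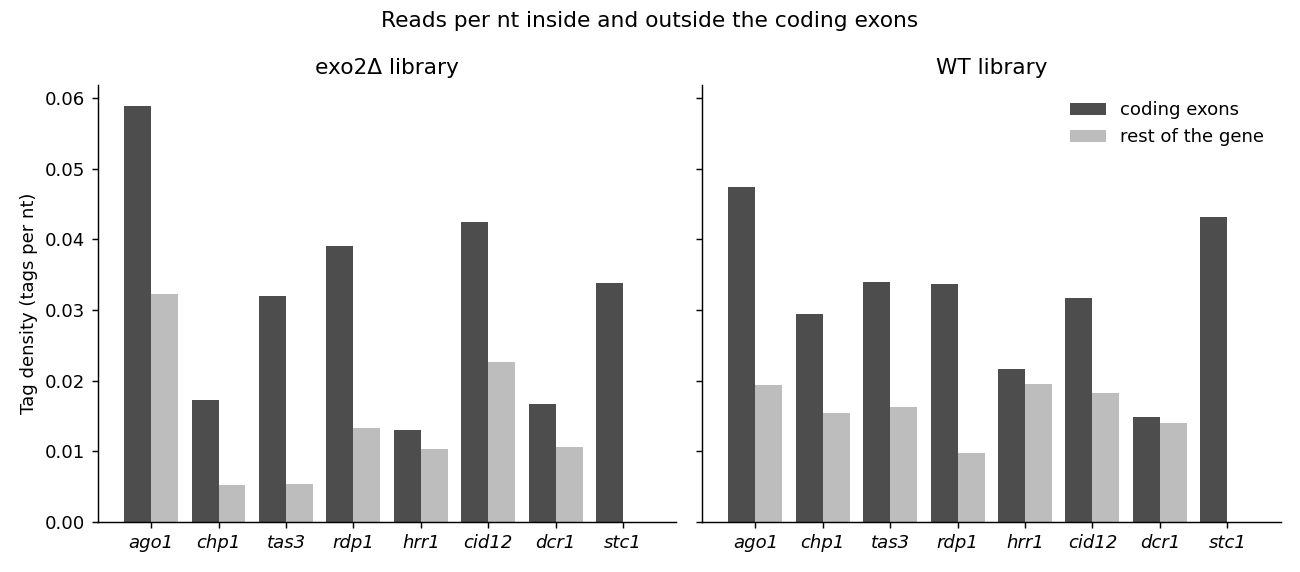
Tag density in tags per nt (linear axis from 0) over coding exons (dark bars) and over the rest of the gene (light bars) for each RNAi gene, in the exo2Δ library (left) and the WT library (right). The dark bar is the taller one for every gene in both libraries, and stc1 has no light bar because no read was counted there.

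The study looked for small RNAs where an XUT, a noncoding RNA that accumulates without Exo2, lies opposite an mRNA. None of the 8 RNAi genes shared 50 nt or more with an XUT on the other strand, and 1086 mRNAs (21.2%) did. A feature of any kind lay opposite 4 of the 8 genes and 61.5% of all mRNAs. The 8 genes are too few to be set apart from other mRNAs by such shares. An opposite mRNA was present at 4 of the 8 genes, and at 35.9% of all mRNAs. The RNAi genes with such a partner were dcr1, hrr1, cid12 and stc1, with 5 opposite genes in all. At rdp1 the opposite gene exo8 shared only 44 nt and was left out by this minimum.

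At dcr1, the septin gene spn6 (SPCC188.12, chromosome III, 1504862 to 1506851, plus strand) shared 1903 nt, including 686 nt of the dcr1 coding exon. It held 2 reads in exo2Δ and 3 reads in WT, at or under the limit of 3 reads that a count of 0 allows, so that no ratio is given. The strand of dcr1 held 85 reads in exo2Δ and 82 reads in WT over its whole length. Of these, 16 in exo2Δ and 21 in WT lay outside its coding exon. Small RNA reads on spn6, which lies to 95.6% within the dcr1 gene, were thus nearly absent in both libraries.

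At cid12, both naa50 (SPCC663.13c, an N-terminal acetyltransferase gene) and trp663 (SPCC663.14c) lie wholly within the part outside the coding exon. On chromosome III, naa50 runs from 1656901 to 1657583 and held 39 reads in exo2Δ and 56 reads in WT, a ratio of 0.695 (0.450 to 1.06). It was denser than cid12, with 0.0570 tags per nt in exo2Δ and 0.0820 tags per nt in WT. The gene trp663 (1657631 to 1659783) held 4 reads in exo2Δ and 5 reads in WT over 2153 nt. The noncoding unit on the cid12 strand, which covers all of trp663, held 71 reads in exo2Δ and 60 reads in WT. The table gives no positions of reads within a feature, so the reads over the shared bases alone are not known.

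At hrr1, dms1 (SPCC1739.04c, chromosome III, 2032885 to 2034392, minus strand) shared 1321 nt, all of them outside the hrr1 coding exons. It held 46 reads in exo2Δ and 38 reads in WT, a ratio of 1.21 (0.769 to 1.91). The part of hrr1 outside its coding exons held 20 reads in exo2Δ and 38 reads in WT. At stc1, mug30 (SPBP8B7.27, chromosome II, 3688331 to 3691849, plus strand) runs across 842 nt and covers all 648 nt of the stc1 coding exon with its noncoding 3′ end. It held 47 reads in exo2Δ and 30 reads in WT, a ratio of 1.56 (0.968 to 2.56), and 13 reads in exo2Δ and 7 reads in WT lay outside its own coding exons. Both intervals included no change. No base was coding on both strands at any of the 5 pairs. Summed over the 5 opposite genes, the log2 ratio was 0.06. It was -0.10 when exo8 was taken in with a minimum of 1 nt and -0.18 when scaled on small nuclear and nucleolar RNAs, so that its direction was not settled.

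**Figure D4:**
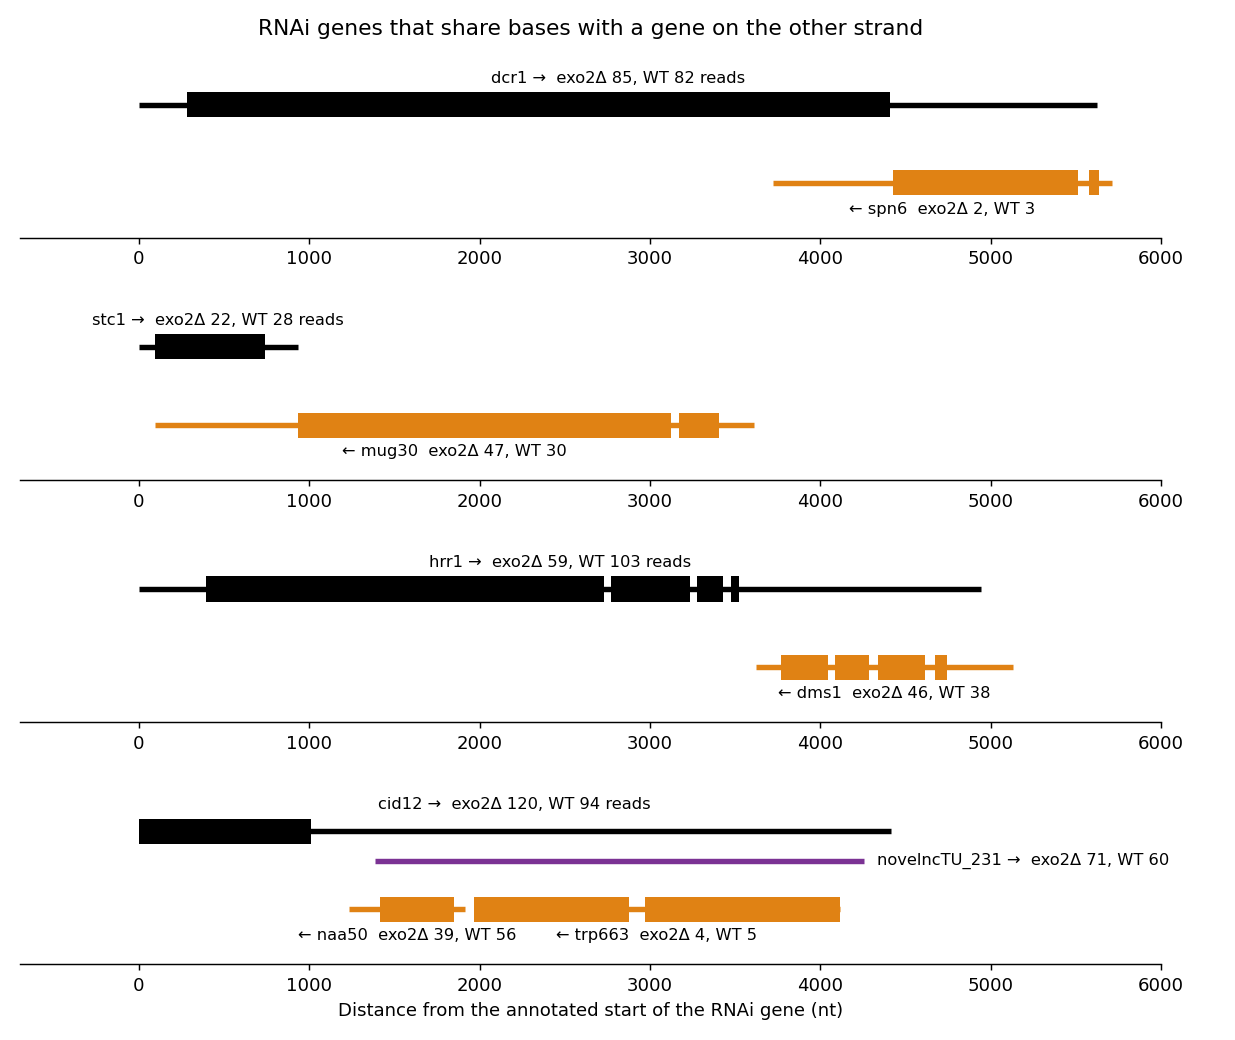
Maps of dcr1, stc1, hrr1 and cid12 drawn to scale by distance in nt from the annotated start of each RNAi gene (black, left to right), with opposite genes in orange, the noncoding unit in purple and boxes for coding exons. The reads of exo2Δ and WT stand beside each feature, and the features differ in length. At most 5 reads in either library lay on spn6 (1990 nt) and on trp663 (2153 nt). The whole genes held 85 and 82 reads for dcr1 (5626 nt) and 120 and 94 for cid12 (4415 nt).

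Other genes that act with this machinery were taken from lists. Of 6 further RNAi genes, 5 passed the minimum, with 2 log2 ratios above 0, 3 below and none past 2-fold. Their median was -0.22. The genes arb1 and arb2 encode the partners of Ago1 in a second Argonaute complex. For arb1 there were 33 reads in exo2Δ and 60 reads in WT, a ratio of 0.549 (0.348 to 0.853). Scaled on small nuclear and nucleolar RNAs, arb1 was more than 2-fold lower, at a log2 ratio of -1.08. For arb2, which did not pass the minimum, there were 5 reads in exo2Δ and 14 reads in WT, and its interval of 0.10 to 1.05 included no change. The arb1 ratio equals that of chp1, since 33 of 60 and 55 of 100 are the same fraction.

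For dsh1 and ers1, whose products help RDRC at heterochromatin, the reads were also close. The gene dsh1 held 54 reads in exo2Δ and 49 in WT, and ers1 held 31 reads in exo2Δ and 40 in WT. The gene tri1, of the exonuclease Triman that trims small RNAs on Ago1, held 35 reads in exo2Δ and 29 in WT. Only 3 of these in exo2Δ and 11 in WT were in its coding exon, so that the direction over coding exons was the opposite one, with an interval of 0.0488 to 1.03. The gene dri1, of an RNA-binding protein, held 233 reads in exo2Δ and 271 in WT. It was denser than any of the 8 RNAi genes, with 0.0909 tags per nt in exo2Δ and 0.106 tags per nt in WT. The intervals of these 4 genes included no change.

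The 4 CLRC genes followed here had a median log2 ratio of 0.02, and none was past 2-fold. The histone methyltransferase gene clr4 held 114 reads in exo2Δ and 113 in WT, and rik1 held 179 reads in exo2Δ and 174 in WT. The gene raf2 held 72 reads in exo2Δ and 82 in WT. Only the cullin gene pcu4 had an interval without 1, with 115 reads in exo2Δ and 73 reads in WT, a ratio of 1.57 (1.16 to 2.14). Scaled on small nuclear and nucleolar RNAs the interval included 1 (0.981 to 1.81). Its log2 ratio of 0.65 was at percentile 93.2 of mRNAs past the minimum.

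**Figure D5:**
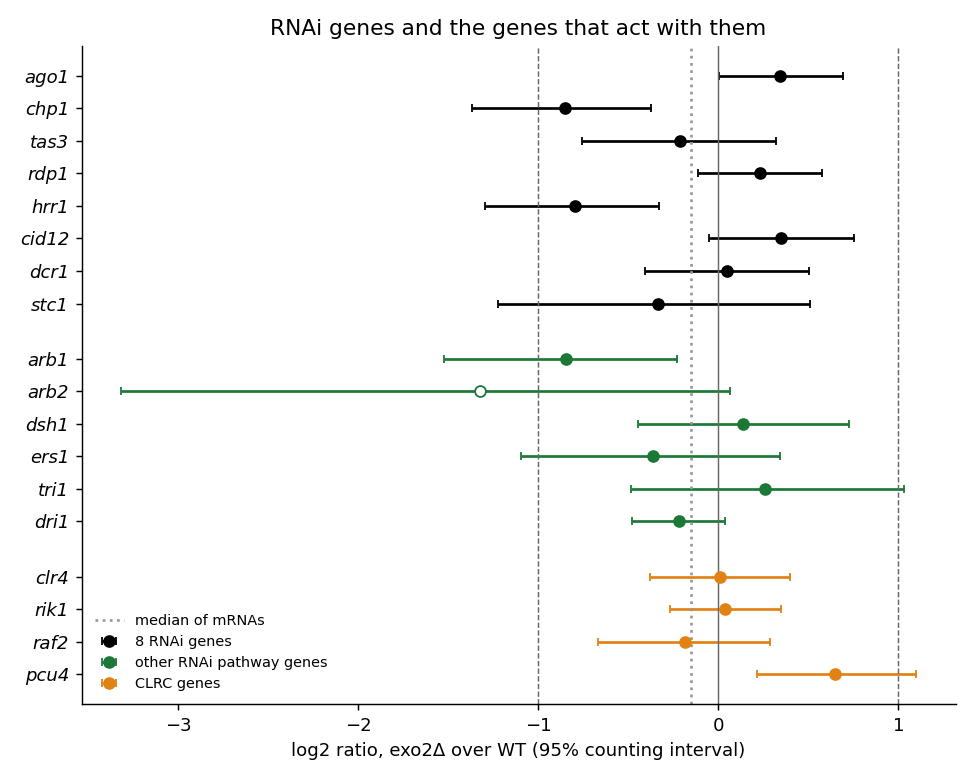
Log2 ratio of exo2Δ over WT with 1 read added (linear axis) for the 8 RNAi genes, 6 other RNAi pathway genes and 4 CLRC genes, with bars for 95% counting intervals of the reads and an open point for arb2, under the read minimum. Dashed lines mark 2-fold and the dotted line the median of mRNAs, -0.15; chp1, hrr1 and arb1 lie lowest among genes past the minimum and pcu4 lies highest.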

How the data were processed

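Per the labels, total RNA was extracted with hot phenol, and small RNAs of 10 to 40 nt were sequenced as single reads of 40 nt, from 1 library of each strain. The authors trimmed adapters with cutadapt, kept reads that Bowtie mapped to 1 place, with a few mismatches tolerated, and deposited a signal for every feature, in tags per nt. Build ASM294v2 is named in the submitters' processing notes. The study filtered small RNAs by length for its own analysis and took noncoding RNAs from PomBase and an added set of transcription units. Whether that length filter was applied to this table, and how the libraries were scaled, is not given in the sources used here.

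Density multiplied by feature length was whole, within 0.001, in 100% of 19343 rows of WT. For exo2Δ the values were whole multiples of 0.998 in 100% of rows. Reads were recovered from these steps, and ratios used the scaling as deposited. With 1 library per strain no test between strains was run. Calculations used Python 3.11.15 with SciPy 1.17.1 and were checked on simulated data. Log2 ratios had 1 read added and needed a mean of at least 10 reads when mRNAs were counted. Features on the other strand counted as opposite from 50 nt of overlap. The values are strand-specific: of 1515 features wholly inside an mRNA of the other strand, 110 had more reads than that mRNA in both libraries. Of the 10190 coding exons of chromosomes I to III, 98.4% have the same coordinates in ASM294v3, as do all 12 of the RNAi genes. The text gives positions as deposited. The genes named are exo2, the 8 members, opposite genes, and the genes of both pathway lists. A further CLRC gene is not reported here. Members and lists were chosen with earlier results of these data known. Genes of a like pattern were not sought, since 2 libraries give no pattern.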

Additional observations from a re-analysis of the deposited data

How the results depend on the processing

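Scaling on small nuclear and nucleolar RNAs moved log2 ratios by about -0.24 and scaling on the median ratio of mRNAs by about 0.15. The median of the 8 RNAi genes was then -0.32 and 0.069. On the first scaling the medians of the other RNAi pathway genes and of the CLRC genes were -0.46 and -0.22, the coding exons of the 8 genes gave -0.25 in sum, and 2 RNAi genes were over 2-fold lower. With a fold of 1.5 in place of 2, 2 RNAi genes were lower, as were 18.4% of mRNAs. Higher and lower mRNAs numbered 73 and 501 on the first scaling, 65 and 142 under a minimum mean of 50 reads, and 375 and 876 with a fold of 1.5, and 146 were lower on the median ratio of mRNAs. A scaling moves all ratios alike, and the filter leaves fewer genes. All 48 values of single RNAi genes under the alternatives stayed within their counting intervals, which are wide next to shifts of this size. That result is therefore no check of robustness, and rdp1 and dcr1 changed sign on small nuclear and nucleolar RNAs. No paired analysis was possible because there was only 1 library per strain. At 22 to 163 reads per gene and library, the interval over the whole gene left out no change for ago1, chp1 and hrr1, and over coding exons for chp1 and hrr1. The share of all mRNAs with such an interval is not given here, so this does not set the RNAi genes apart. Intervals were recomputed under the other 3 scalings after seeing the data. For ago1 the interval over the gene left out no change only on the median ratio of mRNAs, where rdp1 and cid12, and the coding exons of ago1 and rdp1, did so too and the hrr1 coding exons no longer did. On small nuclear and nucleolar RNAs arb2 and dri1, and the coding exon of tri1, also left it out. Over the whole gene chp1 and hrr1 left out no change under all 3.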

Other observations

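Genes next to the RNAi genes, within 300 nt, were listed after the values were seen. Their ratios are at the scaling as deposited, and their intervals were not recomputed under the others. The share of all features with a counting interval without 1 is not given here, so whether these neighbours stand out was not tested. Of 11 such neighbours, 6 had a counting interval without 1, with 1 higher and 5 lower in exo2Δ. Those lower include ucp8 and rpl4302 beside tas3, with ratios of 0.659 and 0.811, and mrpl22 beside hrr1, with 0.775. The gene aim18 (SPAC18G6.01c), which lies 19 nt downstream of chp1 on the same strand, held 69 reads in exo2Δ and 41 reads in WT, a ratio of 1.68 (95% counting interval 1.12 to 2.54), where chp1 had 0.549. On the other side of chp1, 68 nt upstream and on the same strand, the valine tRNA gene SPATRNAVAL.03 held 931 reads in exo2Δ and 2623 reads in WT, a ratio of 0.354 (0.328 to 0.382). The gene mmi1, of a protein that removes meiotic mRNAs, lies 17 nt from the end of ago1 on the other strand and held 271 reads in exo2Δ and 361 reads in WT, a ratio of 0.749 (0.638 to 0.879), where ago1 had 1.27.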
